A study of Homo sapiens with 12 samples.

Results

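The H3K9ac landscape of untreated MOLM-13 cells was described from the 3 H3K9ac libraries whose labels give DMSO, the solvent, as treatment, out of 12 samples in the series. The members were chosen by those labels, with earlier results of these data known. The 3 libraries of cells given the inhibitor WM-1119 were not read, and neither were the 6 input samples. No treatment effect and no enrichment over input is therefore given. The labels state a schedule for WM-1119 (4 µM for 4 days) on every sample and none for DMSO by itself, and are silent on whether the replicates are separate cultures, so an SD may hold technical spread only. MOLM-13 is an established human acute myeloid leukaemia line that carries a fusion of KMT2A to MLLT3 and a tandem duplication inside FLT3; it is a cultured line, and its profile is that of 1 leukaemia.

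Acetylation of lysine 9 on histone H3 is placed by histone acetyltransferases such as GCN5 and PCAF, and is read by bromodomain and YEATS-domain proteins such as MLLT3. It marks the starts of genes in use and many active enhancers, and usually spreads farthest over genes that fix a cell's identity. In leukaemias with a KMT2A fusion, the fusion protein is known for holding such wide active chromatin over HOXA genes, MEIS1 and a set of blood regulators.

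The DMSO libraries were read over 47648 regions listed for hg38, from 147 to 30821 bp wide with a median of 401 bp. Values are CPM, a library's read counts scaled to sum to 1000000 over all listed regions, so they give shares of the signal and no absolute amount. Reads in regions numbered 719329 in replicate 1, 1298443 in replicate 2 and 7481097 in replicate 3, a 10.4-fold range. The replicates differed in how much signal lay in weak regions: regions weaker than the median one took 8.73% of CPM in replicate 1, 7.12% in replicate 2 and 2.44% in replicate 3. A level that 3 reads give, used as the floor, was 4.17, 2.31 and 0.401 CPM, for counting error only. No replicate was a copy of another: the chi-square over its degrees of freedom was 1.61 for replicates 1 and 2, and 6.41 and 7.16 for the pairs with replicate 3.

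The reference promoters of 4 coding genes show the range that the landscape spans, from its widest region to a gene with none. Each runs from 250 bases before to 50 after the gene's start (RefSeq, GRCh38.p14), 5′ to 3′ on the gene's own strand, and capitals mark every CpG. SATB1, a chromatin organiser of lymphoid and stem cells, starts in the widest region (1004 CPM), at chr3:18425290-18425589 on the minus strand with 33 CpG. HOXA9, the homeobox gene that KMT2A fusions are best known for, lies in the next widest (959 CPM), at chr7:27165488-27165787 on the minus strand with 22. PAX5, the master regulator of B cells, has 30 CpG at chr9:37034219-37034518 on the minus strand and only 2.34 CPM at its start. Its strongest region within 5 kb has 15.8 CPM. ALB, the albumin gene of the liver, has 4 CpG at chr4:73404037-73404336 on the plus strand and no region.
SATB1: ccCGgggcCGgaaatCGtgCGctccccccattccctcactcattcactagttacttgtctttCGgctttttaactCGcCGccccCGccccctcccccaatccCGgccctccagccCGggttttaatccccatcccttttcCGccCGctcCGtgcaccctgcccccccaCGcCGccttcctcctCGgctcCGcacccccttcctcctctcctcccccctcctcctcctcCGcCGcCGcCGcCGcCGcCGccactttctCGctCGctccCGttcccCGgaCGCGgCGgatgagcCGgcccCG
HOXA9: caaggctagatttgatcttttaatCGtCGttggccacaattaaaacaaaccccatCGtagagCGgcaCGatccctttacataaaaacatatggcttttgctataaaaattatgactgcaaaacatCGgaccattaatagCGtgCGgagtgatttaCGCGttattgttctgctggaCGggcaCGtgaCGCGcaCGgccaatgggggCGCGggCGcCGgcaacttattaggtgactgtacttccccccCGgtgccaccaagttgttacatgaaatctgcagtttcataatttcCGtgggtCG
PAX5: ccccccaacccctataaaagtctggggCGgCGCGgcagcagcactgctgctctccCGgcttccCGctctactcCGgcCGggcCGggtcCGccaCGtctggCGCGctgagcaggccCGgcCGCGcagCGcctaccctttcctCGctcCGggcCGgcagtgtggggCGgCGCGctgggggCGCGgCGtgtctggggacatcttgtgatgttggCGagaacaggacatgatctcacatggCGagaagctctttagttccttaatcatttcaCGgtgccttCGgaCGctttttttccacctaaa
ALB: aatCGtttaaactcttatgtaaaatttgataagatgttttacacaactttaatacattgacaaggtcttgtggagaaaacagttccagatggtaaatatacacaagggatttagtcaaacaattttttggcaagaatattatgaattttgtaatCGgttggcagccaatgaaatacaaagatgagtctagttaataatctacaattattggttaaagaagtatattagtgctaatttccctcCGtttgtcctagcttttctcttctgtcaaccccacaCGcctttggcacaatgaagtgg
SATB1 and PAX5 are rich in CpG, HOXA9 matches the median of 22 over all 15843 reference promoters, and ALB has few. SATB1, HOXA9 and PAX5 span the range from the widest region to a weak one.

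The strongest region by mean CPM, chr22:46060003-46084090, held 999.5 CPM in replicate 1, 1521 in replicate 2 and 1998 in replicate 3 (1506 ± 499, SD, n = 3). It covers 24.1 kb at the start of the uncharacterised coding gene LOC124905135 and overlaps the long non-coding gene LINC02939. It was the highest region in each of the 3 libraries. The 19 regions after it were less firmly ordered. Of the 20 steps from 1 rank to the next, counted down to rank 21, only 2 held in all 3 libraries: the first over the second and the fifth over the sixth.

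Chromatin and cell cycle regulators were among the next regions. SATB1 held 794, 966 and 1253 CPM in replicates 1, 2 and 3 (1004 ± 232) over 30.8 kb, the widest region in the table. The region at COMMD3 and BMI1, the latter a Polycomb protein that sustains stem cell renewal, held 774, 939 and 1272 CPM (995 ± 253). A neighbouring region inside BMI1 added 542, 638 and 827 CPM and ranked 10th by itself. Replicate 3 was the highest and replicate 1 the lowest in each of these regions. CDKN2C, which encodes the CDK4/6 inhibitor p18, held 689.5, 856 and 1178 CPM (908 ± 248). The region at CDKN1B, which encodes the inhibitor p27, and at its neighbours GPR19 and APOLD1 held 627, 787 and 1096 CPM (837 ± 238). The starts of these 3 genes share the region and cannot be told apart.

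The HOXA cluster had rank 4, and MEIS1 and PBX3 were also among the 20. A 27.1 kb region at chr7:27148006-27175073 held 747, 956 and 1175 CPM (959 ± 214). It lay within 1 kb of the starts of HOXA3, HOXA6, HOXA7, HOXA9 and HOXA10 and overlapped all of these genes but HOXA6. MEIS1, the cofactor with which HOXA9 transforms myeloid cells, held 523, 632 and 843 CPM (666 ± 163), and PBX3, which joins that complex, held 531, 642 and 749 CPM (641 ± 109). MEF2C, a transcription factor of monocytic and lymphoid progenitors, had 587 ± 93.9 CPM and its relative MEF2D had 585 ± 197. Replicate 1 was again the lowest in each of these regions. Others among the 20 were IRF2BP2 (718 ± 161), HNRNPU, an RNA-binding protein (690.4 ± 176), the microRNA locus at TSPOAP1 (686 ± 195), IGF2BP2 (562 ± 160), LAMP5 (559.8 ± 228), FOXP1 (555 ± 145) and ST3GAL1 (547 ± 91.3). LAMP5, a lysosome-associated membrane protein, had the highest coefficient of variation among the 20 (40.7%), from 314 CPM in replicate 1 to 764 in replicate 3.

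Among the 20 strongest regions 17 lay at a coding gene start. The exceptions included the second BMI1 region and a region at chr4:180051719-180067838 outside any annotated gene. The last held 507, 645 and 783 CPM (645 ± 138) over 16.1 kb, with the nearest coding gene, TENM3, 1379775 bp away. The next strongest region outside genes, 54072 bp from RREB1, reached 181 ± 20.9 CPM. The chromosome 4 region was the only region outside genes among the 44 wider than 10 kb.

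**Figure D1:**
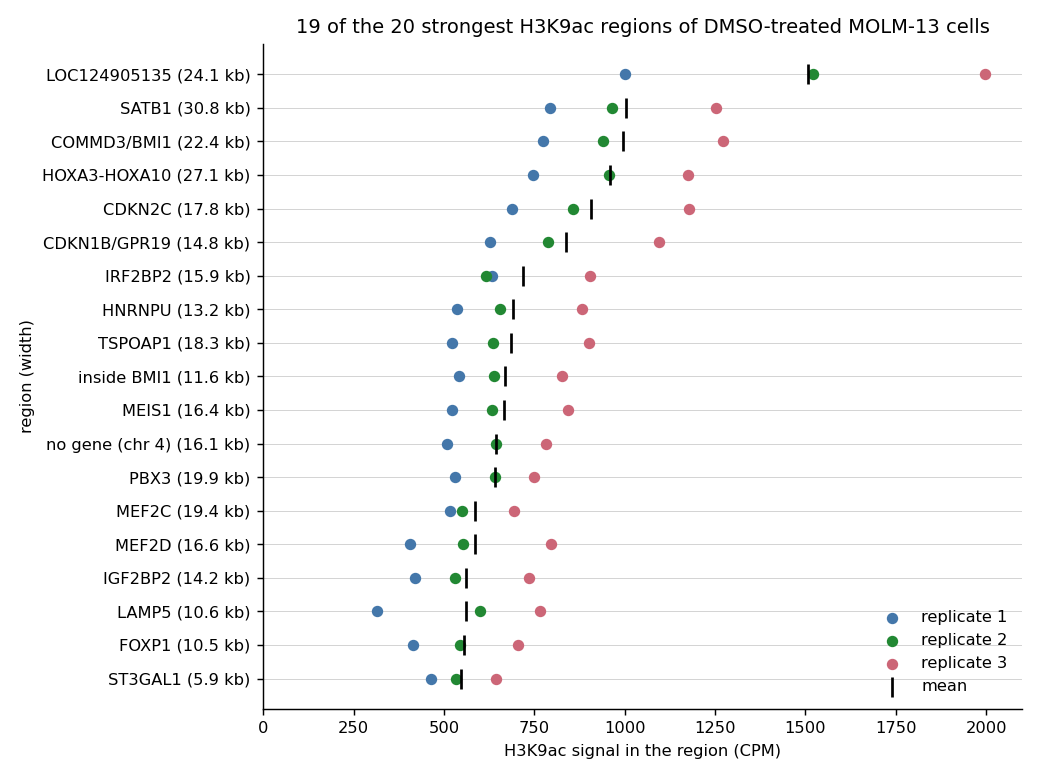
Regions among the 20 with the highest mean CPM (19 drawn, 1 not reported here), named by a gene they cover, with width in kb; points are the 3 DMSO libraries and black bars their mean on a linear CPM axis. Replicate 3 is the rightmost point in all 19, and the first region reaches 1998 CPM in that library.

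Strength and width went together. Across all regions the Spearman correlation of width with mean CPM was 0.913, and it was 0.891 over the 15915 regions that averaged 10 CPM or more; both describe regions of the same libraries, and a wide region collects more reads by its size. All 44 regions wider than 10 kb were in the strongest 1% of regions, with means from 249 to 1506 CPM, and 36 of them lay at a coding gene start. Beyond those named so far they included GFI1, a repressor that guides granulocyte fate (531 ± 99.4 CPM). ZEB2, ZNF516, KLF16, ZNF521, BCL11A and DACH1 encode other transcriptional regulators with regions this wide, and NEAT1 and MALAT1 are nuclear non-coding RNAs with regions of 11897 and 10113 bp. Replicate 3 was the highest library in all 44.

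Width depends on how neighbouring pieces were joined. When regions up to 1 kb apart were merged, a choice made after seeing the data, 134 blocks exceeded 10 kb. The LOC124905135 region then became part of a 51071 bp block of 9 regions that also overlaps LINC00899 and MIRLET7BHG, the host gene of let-7 microRNAs, with a summed mean of 2541 CPM. A 45104 bp block of 16 regions joined SKIDA1, MIR1915HG and the start of MLLT10, a KMT2A fusion partner, and the COMMD3, BMI1 and SPAG6 block reached 37931 bp. Of the 20 strongest single regions 17 lay in the 20 strongest blocks.

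**Figure D2:**
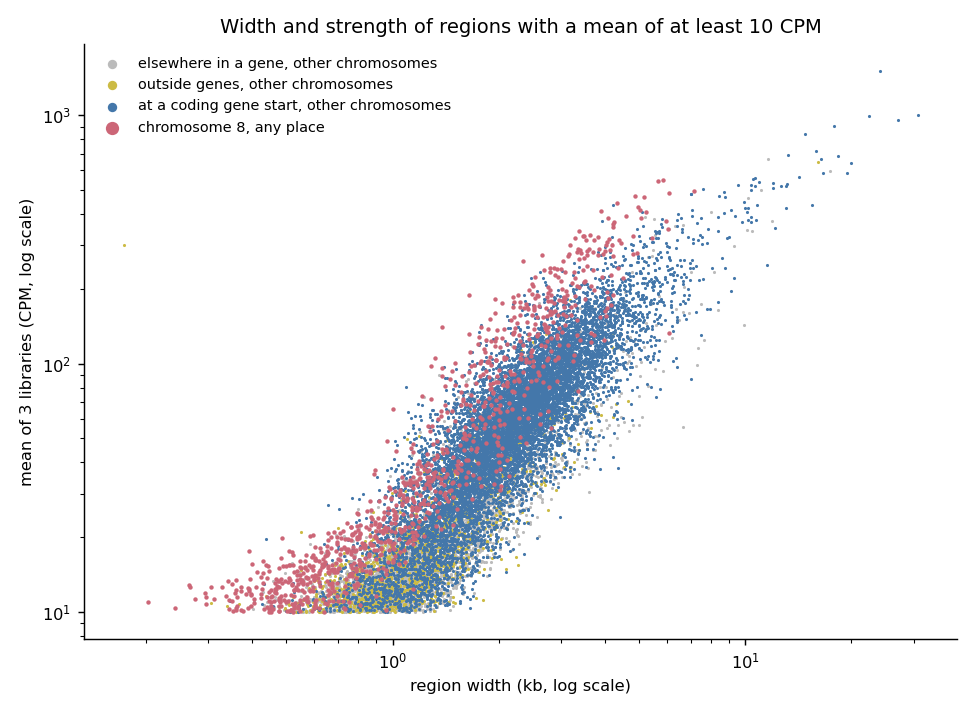
Width in kb against mean CPM of the 3 DMSO libraries for the 15915 regions averaging 10 CPM or more, both axes on a log scale; colours give the place of the region, and chromosome 8 is drawn separately. Strength rises with width, and chromosome 8 regions lie towards the upper edge at a given width.

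Dividing by width gave a different list. Highest by CPM per kb was a 173 bp piece of the mitochondrial genome, with 2917, 2177 and 102 CPM per kb in replicates 1, 2 and 3. The replicates spanned 28.6-fold in its share of signal, and mitochondrial DNA carries no histones. The nuclear regions below it lay mostly on chromosome 8: 17 of the 20 densest did, against 6.20% of all regions averaging 10 CPM or more. By mean CPM, chromosome 8 held 1 of the 20 strongest regions and none of those wider than 10 kb. It held 106 of the 476 regions in the strongest 1% (22.3%), against 4.38% of all regions. TONSL and VPS28, which share a start region, had 91.8, 104 and 146 CPM per kb (114 ± 28.7). CYC1, a subunit of respiratory complex III, had 110.3 ± 24.8, AZIN1, a regulator of polyamine synthesis, 106 ± 15.1, and YWHAZ, a 14-3-3 protein, 103 ± 7.44. CEBPD, a C/EBP factor of myeloid cells that shares its region with SPIDR, had 97.2 ± 16.8. These dense regions were compact, from 1.38 kb at C8orf33 to 5.86 kb at ST3GAL1. SENP6 (102 ± 32.8) and BICRAL (95.2 ± 22.3), both on chromosome 6, were the other nuclear regions among the 20. ST3GAL1, a sialyltransferase, was the only region among the 20 highest on both scales.

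The density at coding gene starts was highest on chromosome 8 in every library. Over starts averaging 10 CPM or more, the median on chromosome 8 was 50.8, 49.9 and 53.6 CPM per kb in replicates 1, 2 and 3, and the median of the other autosomes was 26.1 for the mean of the libraries. The ratio was 2.08, 1.96 and 1.90. Chromosomes 13 (36.8), 6 (34.9) and 19 (31.4) came next, in that order in all 3 libraries, while the order of the others varied between libraries, and chromosome 11 was the lowest at 23.8. Chromosomes 8, 13, 6 and 19 held 77, 4, 9 and 9 of the 100 densest regions, counted at any place. At starts alone they held 68, 3, 9 and 9 of those 100. Their share of the 9767 autosomal start regions averaging 10 CPM or more was 371, 194, 563 and 772 regions. Weak regions differed too: the 10th percentile of CPM per kb on chromosome 8 was 17.8, 15.6 and 3.56, against 9.46, 8.66 and 2.66 on chromosome 13 and 5.38, 5.11 and 1.48 on chromosome 1. No measure of chromosome copy number was read, and its part in these levels was not tested. After division by the median of each chromosome, a choice made after seeing the data, the densest starts were SENP6, ANP32B, LSM14A, KEAP1 and SSU72, and only SENP6 and BICRAL stayed from the first 20.

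**Figure D3:**
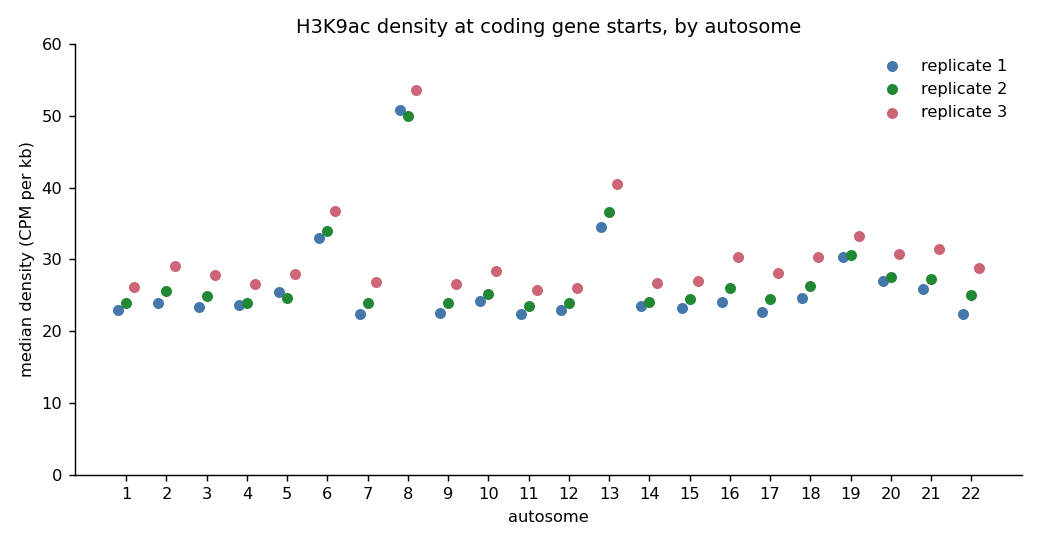
Median CPM per kb of regions at coding gene starts averaging 10 CPM or more, for each autosome and each of the 3 DMSO libraries (points). Chromosome 8 lies near 50 in all 3 libraries, and chromosomes 13, 6 and 19 follow.

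Some regions moved far between the rankings. A 9902 bp region inside TTC7A was strong by mean (143 ± 8.80 CPM) and thin by density (14.5 CPM per kb), and DNAI4 with MIER1 (11550 bp, 249 ± 9.32 CPM, 21.5 CPM per kb), AHNAK, SKI and the region of MIR223 moved likewise. In the other direction a 203 bp region inside RB1CC1 on chromosome 8 reached 54.3 CPM per kb. TPD52, PTDSS1 and LY96, also on chromosome 8, and NUS1 on chromosome 6 behaved similarly. In RB1CC1, TPD52, PTDSS1 and LY96 replicate 1 was the highest and replicate 3 the lowest, with 18.1, 12.3 and 2.67 CPM at RB1CC1.

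Most of the signal sat at the starts of coding genes. Regions within 1 kb of such a start were 28.8% of all regions (13709) and held 67.5%, 71.9% and 81.9% of CPM in replicates 1, 2 and 3 (73.8% ± 7.34). They had a median width of 1728 bp and a median of 39.1 CPM. The 25023 regions elsewhere in genes held 20.1% ± 5.31 of CPM, with a median width of 280 bp and 3.58 CPM, and the 8916 regions outside genes held 6.09% ± 2.03. Within the strongest 1%, which is 476 regions, 440 were at a start. Those 476 regions took 11.4%, 13.2% and 16.8% of CPM (13.8% ± 2.75), and the strongest 10% took 49.7%, 54.7% and 66.1%. On each of these measures replicate 3, the deepest library and the one with least signal in weak regions, was the most concentrated; the part of depth or background in this was not tested.

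The libraries ordered regions more alike where signal was stronger. Over all regions the Spearman correlation was 0.839 between replicates 1 and 2, 0.839 between 1 and 3 and 0.862 between 2 and 3. Over regions averaging 10 CPM or more, it was 0.919, 0.899 and 0.954 in the same order, as a description over regions. The 500 highest regions of replicate 3 shared 439 with those of replicate 2 and 387 with those of replicate 1. The median coefficient of variation was 15.2% for regions of 50 to 100 CPM, where counting error alone gives 10.2%. It was 20.6% at 200 CPM and above, where counting gives 5.10%, and 83.4% below 2 CPM, where counting gives 80.3%. Replicate 3 was 1.36 times the mean of the other libraries at 200 CPM and above and 0.260 times it between 2 and 5 CPM, and it was the highest library in 456 of the 476 strongest regions. Among the 6265 regions averaging 50 CPM or more, TRMT61A, a transfer RNA methyltransferase, had the lowest coefficient of variation, with 68.1, 67.8 and 68.0 CPM, followed by CHORDC1, RUNX3, POFUT4 and AMACR. The mitochondrial piece had the highest among them, at 505, 377 and 17.6 CPM.

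Of 20056 coding genes, 12436 (62.0%) had a region within 1 kb of the start, and 6154 (30.7%) had none in the gene or within 1 kb of it. A gene with no region was not listed, which is not a measured 0. The genes with a region had a median of 54.6 CPM, and their top 10% began at 137 CPM and held 6.20% of all coding genes. These shares are the base for the list counts below. Since 12.8% of start regions served more than 1 gene, a level at a shared start belongs to the pair and not to either gene.

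KMT2A fusion targets had the largest share of strong genes among the lists, as a description. The lists were chosen with earlier results of these data known, so their order is not independent of the values. Of 25 genes known as targets of such fusions, 24 had a region, with a median of 453 CPM, and 19 were in the top 10% of genes with a region. That is 76% of the list, against 6.20% of all coding genes. HOXA6, HOXA7, HOXA9 and HOXA10 share 1 region, which lies within 1 kb of the HOXA6 start but does not overlap HOXA6. The list's 21 distinct regions had a median of 425 CPM, and 10 of them were wider than 10 kb. CPEB2 (442, 516 and 620.2 CPM), ZNF521 (381, 518 and 659.9), CDK6, the G1 kinase (377, 502 and 645), ARID2 (371, 496 and 628) and MYB (317, 501 and 627) all had means above that median. FLT3, the receptor mutated in this line, held 214, 233 and 397 CPM. At the low end, HOXA5 had 1.58 CPM, and EYA1, which has no start in the reference used, had no region at either gene end. Of the 24 with a region, 22 lay above the gene median of 54.6 CPM, and HOXA5 was under the floor in replicates 1 and 3.

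The HOX clusters differed. HOXA4 and HOXA5, just outside the strong HOXA region, had 8.74 ± 3.37 and 1.58 ± 1.42 CPM. HOXA11, on its other side, held 209.9, 263 and 328 CPM, HOXA13 had 51.6 ± 18.0, and HOXA2 had no region. HOXB had regions at 2 of 10 genes and none above 7.39 CPM. HOXC had regions at 4 of 9, none above 7.46, and HOXD at 0 of 9. No HOX gene outside HOXA exceeded 7.46 CPM.

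Transcription factors of the myeloid lineage were strong and the genes of mature monocytes were not. Of 24 listed factors 22 had a start region, with a median of 117 CPM, and 9 were in the top 10%. GFI1 held 441, 516 and 638 CPM, CEBPA, needed for granulocyte and monocyte progenitors, 275, 353 and 448, RUNX1 300.3, 364 and 448, MYC 281, 360 and 482, SPI1, which encodes PU.1, 196, 198 and 255, and IRF8, a monocyte and dendritic cell factor, 87.6, 129 and 141. CEBPE, a factor of late granulocytes, was near the low end at 15.8 ± 6.88 CPM. FLI1, which has no start in the reference used, had no region at either gene end but a region of 149 ± 24.3 CPM within the gene. ERG, its close relative, had no more than 5.42 CPM anywhere in the gene.

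The monocyte list gave 22 of 30 genes with a region, a median of 28.4 CPM and no gene in the top 10%. Highest were the chemokine receptor CCR2 (76.5, 74.7 and 115 CPM), the proteoglycan VCAN (64.0, 97.0 and 72.6), the calcium-binding AIF1 and lysozyme, LYZ (80.6, 84.7 and 40.9). CD14, the endotoxin co-receptor, had 15.3, 8.47 and 2.54 CPM, S100A9 4.17, 3.08 and 1.74, and S100A8 0.558 on average. The scavenger receptors CD163 and MRC1, the Fc receptors FCGR1A and FCGR3A, and CLEC7A, FCN1, S100A12 and SIGLEC1 had no region in or near the gene. Replicate 3 was the lowest library for LYZ, CD14 and S100A9. It was also the lowest in 77.9% of the regions weaker than the median one, which include that of S100A9. The CD14 region, with a mean of 8.77 CPM, was stronger than the median one. The LYZ region, with a mean of 68.8 CPM, was among the strongest 10%, where replicate 3 was the lowest in 6.63% of regions.

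Blast surface and granule genes were mixed. FLT3, FUT4, the fucosyltransferase that makes the CD15 sugar (185, 236 and 295 CPM), the sialoglycoprotein SPN (142, 149 and 224) and CD93 (144 on average) stood in the top 10%, whereas CD33, a diagnostic myeloid antigen, had a mean of 19.2 CPM, ANPEP 3.43 and CSF2RA 1.87. Among granule genes SRGN, the proteoglycan that packs granules, had 149 ± 10.5 CPM, and the primary granule proteases and their kin PRSS57 (122 ± 49.9), AZU1 (97.1 ± 43.6), CTSC and ELANE (89.5 ± 13.6) followed. MPO, the main primary granule enzyme, had 18.1, 11.6 and 8.15 CPM at its start and 45.3 CPM within 5 kb. The late granule genes CAMP, LTF, LCN2, MMP8 and MMP9 had no region. The list as a whole ran from 0.658 to 149 CPM.

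Genes of other cell types mostly had weak regions or none. Of all coding genes 62.0% had a start region, with a median of 54.6 CPM. The stem and the B cell lists, with 50% each, were not far below that share. The stem and progenitor list had a region at 10 of 20 starts with a median of 6.57 CPM; LYL1 (130 ± 35.5) and GATA2 (77.4 ± 10.3) were its highest, MECOM and TAL1 had 0.603 and 1.48 CPM, and CD34, PROM1 and THY1 had none. T and NK cell genes had a median of 4.80 CPM over 8 of 21, led by NCAM1, which encodes the adhesion molecule CD56 (33.4, 52.4 and 54.3 CPM). B cell genes had 4.56 CPM over 7 of 14 (7.99 CPM with regions within 5 kb), and PAX5 read 5.56, 0 and 1.47 CPM at its start. Of 19 erythroid genes 15 had no region in or near the gene, GATA1 and HBB among them, and the transferrin receptor TFRC, which dividing cells use widely, had 118 ± 32.5 CPM. The medians of the T, NK and B cell lists lie near the floor of 4.17 CPM in replicate 1, so their order is not resolved there. Against the label of a myeloid leukaemia line, the myeloid factors and HOXA genes were strongly marked. Myeloid surface and granule genes were mixed: FLT3, FUT4, SPN, CD93 and SRGN stood in the top 10%, whereas CD33, CD14 and MPO were weak at their starts. CD34 had no region.

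Genes of distant tissues were mostly without regions. Muscle genes had a region at 1 of 15 starts, hepatocyte genes at 3 of 16, epithelial genes at 4 of 17, neuron genes at 5 of 19 and germ cell genes at 1 of 15. The share over all coding genes was 62.0%. TF, the hepatocyte gene with most (88.5 CPM), and SFTPC, a lung gene with 117 CPM, share their regions with other genes. Olfactory receptors, expressed in the nose, had regions at 4 of 390 and keratin-associated proteins of hair at 0 of 94. Of 40 developmental transcription factors 26 had no region in or near the gene, against 30.7% of all coding genes. The exceptions included WT1, a zinc finger factor often expressed in leukaemia (109.8, 116 and 159 CPM), IRX3 (64.4 ± 4.01) and DLX2 (62.6 ± 14.1).

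Genes in constant use were well covered, with medians below that of the KMT2A fusion targets. Ribosomal protein genes had a region at 49 of 50 starts with a median of 121 CPM, from RPS4X at 38.7 to RPL8 at 283. The constitutive list had 25 of 27 with a median of 118 CPM: ACTB held 179, 198 and 288 CPM and GAPDH 149, 208 and 211. CHMP2A had no region although cells use it widely, and a missing region is not read here as silence. Mitochondrial ribosomal protein genes had a median of 71.0 CPM over 75 of 77 and glycolysis genes 93.9 over 21 of 21. Zinc finger genes, a family set by symbol and not by constant use, had a region at 354 of 517 (68.5%), against 62.0% of all coding genes. Their median of 43.7 CPM was below the 54.6 of all genes with a region, and 3.68% were in the top 10%, against 6.20%. Replication-dependent histone genes, which sit in dense clusters, had a median of 191 CPM over 27 of 30, with H3C4 at 272, 293 and 394. The 27 genes share 21 regions, and 14 of them lay in 9 regions of the strongest 1%.

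Inducible genes split by kind. All 29 immediate early genes, which respond to stimulation within minutes, had a region, with a median of 102 CPM, and 11 were in the top 10%. ZFP36L2 (310.0, 411 and 588 CPM) and ZFP36, which both encode decay factors of cytokine messages, led, followed by MYC and IER2, while ATF3 had 1.55 CPM. Inflammatory cytokine genes had a region at 16 of 20 starts, with medians of 15.3, 12.3 and 6.15 CPM in replicates 1, 2 and 3, led by the inhibitor NFKBIA (80.5 ± 6.15), with IL6 at 3.18. Interferon response genes had 15.9 CPM over 22 of 26, with BST2 highest at 75.2. MHC class I genes had 68.3 CPM over 11 of 12, with B2M, the light chain, at 141 ± 27.6 and HLA-B at 9.07, and MHC class II genes had regions at 3 of 11, led by the invariant chain CD74 (48.5 ± 7.81).

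**Figure D4:**
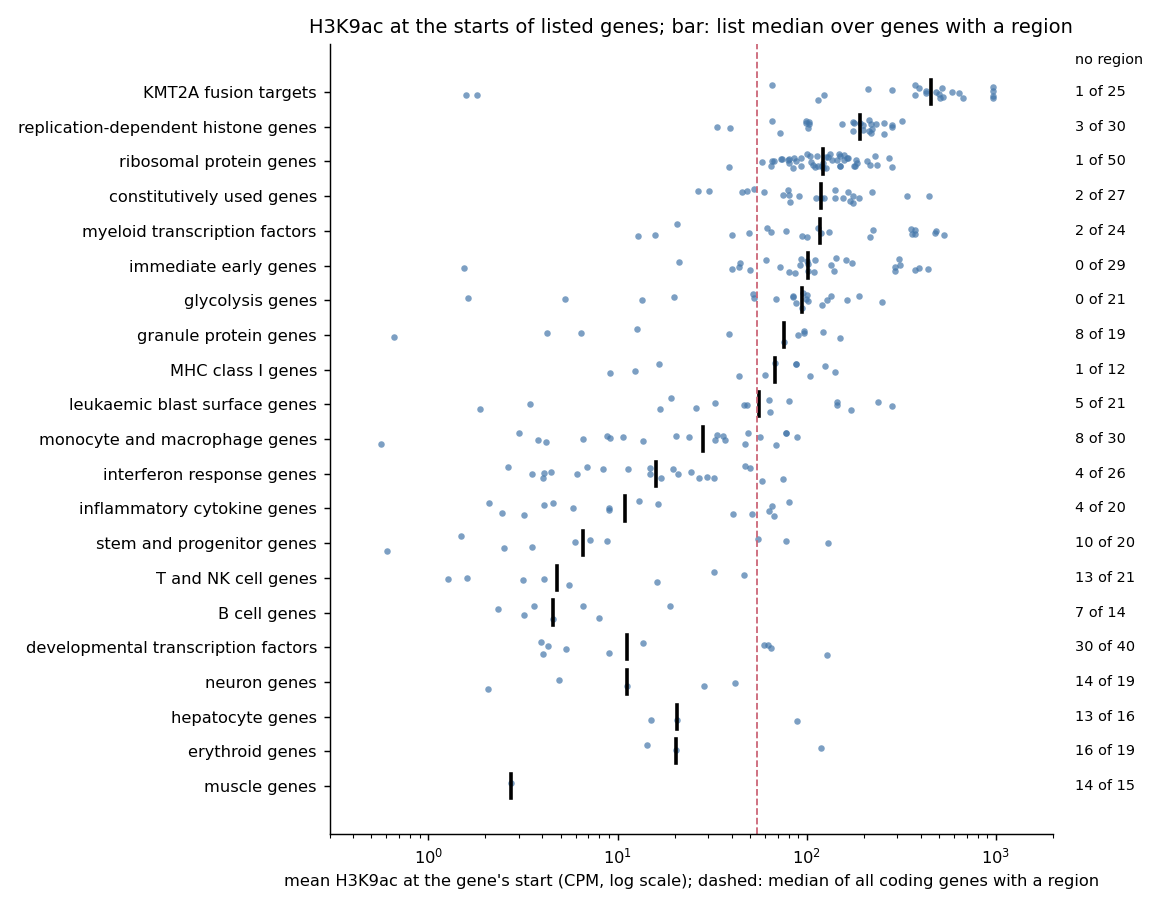
Mean CPM over the 3 DMSO libraries at the start of each listed gene with a region, on a log axis, by list; bars are list medians, the dashed line is the median of all coding genes with a region (54.6 CPM), and numbers at the right give members with no region out of those matched. KMT2A fusion targets reach the highest values, and lists of other tissues have few points.

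Regions on chromosome 9 showed a long stretch with almost no signal. MTAP, a methionine salvage enzyme, had 19.5, 43.9 and 52.8 CPM at its start, and its neighbours KLHL9 and FOCAD had 27.9 ± 5.38 and 22.8 ± 3.41. The next region of at least 10 CPM began 5086 kb farther on, at chr9:26890945-26893557 with 78.8 CPM. In between lay 10 regions, none above 4.17 CPM, and 6 coding genes. TUSC1 had 5.56, 3.08 and 3.88 CPM and the cell cycle inhibitors CDKN2A and CDKN2B, with DMRTA1, ELAVL2 and IZUMO3, had none. A region inside MTAP at chr9:21832109-21832282 was 1 of only 4 in the table with 0 reads in all 3 libraries, where 3 reads would give 4.17, 2.31 and 0.401 CPM. The others lay in HNF4A, in IGFBPL1 and 204 bp from HMX3. Copy number was not measured, and its part in the stretch was not tested. MLLT3, the fusion partner on the same chromosome, had 9.73, 10.0 and 6.55 CPM at its start, and KMT2A 94.5, 90.9 and 105.

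Several microRNA genes lay in strong regions, a look-up made after seeing the data. Of 1562 hairpins in RefSeq (GRCh38.p14), 177 lay inside a region and 27 in the strongest 1% of regions. Some hairpins share a region, so the 27 stand for fewer regions. The strongest 1% had a median width of 4890.5 bp against 401 bp over all regions, and a wide region holds more of any annotation by its size. Whether they hold more hairpins than their width gives was not tested. The mature sequences of those best known in blood cells are given 5′ to 3′ with the seed, bases 2 to 8, in capitals, to show which of them share a seed.
miR-196b-5p: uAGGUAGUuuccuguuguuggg
miR-142-5p: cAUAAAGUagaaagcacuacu
miR-142-3p: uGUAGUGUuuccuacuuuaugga
miR-15b-5p: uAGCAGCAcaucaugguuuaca
miR-16-5p: uAGCAGCAcguaaauauuggcg
miR-17-5p: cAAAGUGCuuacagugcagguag
miR-20a-5p: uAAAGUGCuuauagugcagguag
miR-18a-5p: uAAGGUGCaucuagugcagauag
miR-19a-3p: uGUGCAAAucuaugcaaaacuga
miR-19b-3p: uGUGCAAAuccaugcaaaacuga
miR-92a-3p: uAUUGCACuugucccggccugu
miR-223-3p: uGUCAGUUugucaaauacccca
let-7i-5p: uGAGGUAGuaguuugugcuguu
The HOXA region, with 959 CPM, holds miR-196b. The TSPOAP1 region at chr17:58322883-58341183 holds miR-142, a microRNA made almost only in blood cells. The region at SMC4 and IFT80 (257, 342 and 393 CPM) holds miR-15b and miR-16, which share 1 seed. A region at chr13:91346722-91352278 with 253, 299.6 and 432 CPM (328 ± 92.8) holds the cluster that encodes miR-17, miR-18a, miR-19a, miR-20a, miR-19b and miR-92a, known for promoting growth downstream of MYC. Within it miR-17 and miR-20a share a seed, as do miR-19a and miR-19b. Lower, miR-223, which restrains granulocyte production, lay in a region of 135, 138 and 222 CPM at chrX:66011958-66020321, and let-7i in a region of 153, 138 and 207 CPM. The mark covers the locus and does not measure the mature RNA.

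Promoters of genes with a region held more CpG than those of genes without, as a description. Across 15843 RefSeq promoters of 300 bases, genes with a region were put in 5 groups of similar size by mean CPM. The median number of CpG was 30 in the highest group (102 CPM and above), 28, 27 and 25 in the next, 25 in the lowest and 7 for genes with no region. Of 9064 promoters with at least 20 CpG, 15.4% had no region, against 62.8% of the 6779 with fewer. Among developmental factors 20 of 28 promoters had no region, with a median of 23.5 CpG, while 9 of 10 hepatocyte promoters had none with a median of 4.

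Motifs were searched as exact letters on both strands: TATAAA for the TATA box, GGGCGG for the GC box, CCGGAAG for ETS factors, ATGGCGG for YY1, GCGCATGC for NRF1, GAGGAAGT for PU.1 and CCAAT. The GC box was in 73.3% of promoters of the highest group, 68.3% of the lowest and 34.5% of those without a region (59.4% of all). ETS letters were in 19.5%, 9.13% and 4.28% (14.5% of all) and were most frequent, at 25.1%, in the group next to the highest. YY1 letters were in 14.2%, 4.41% and 2.48% (7.84% of all). The TATA box was in 6.61%, 7.30% and 17.3% (9.57% of all), and CCAAT was nearly level at 35.1%, 31.7% and 35.9% (35.8% of all). NRF1 letters were in 6.14%, 3.04% and 1.57% (4.2% of all). For ETS, YY1 and NRF1 the highest and the lowest group were farther apart than the lowest group and promoters without a region. PU.1 letters were in 2.82%, 3.46% and 2.48% (2.63% of all). CpG content and these motifs overlap in their letters, and no match or lack of match says whether a factor binds.

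**Figure D5:**
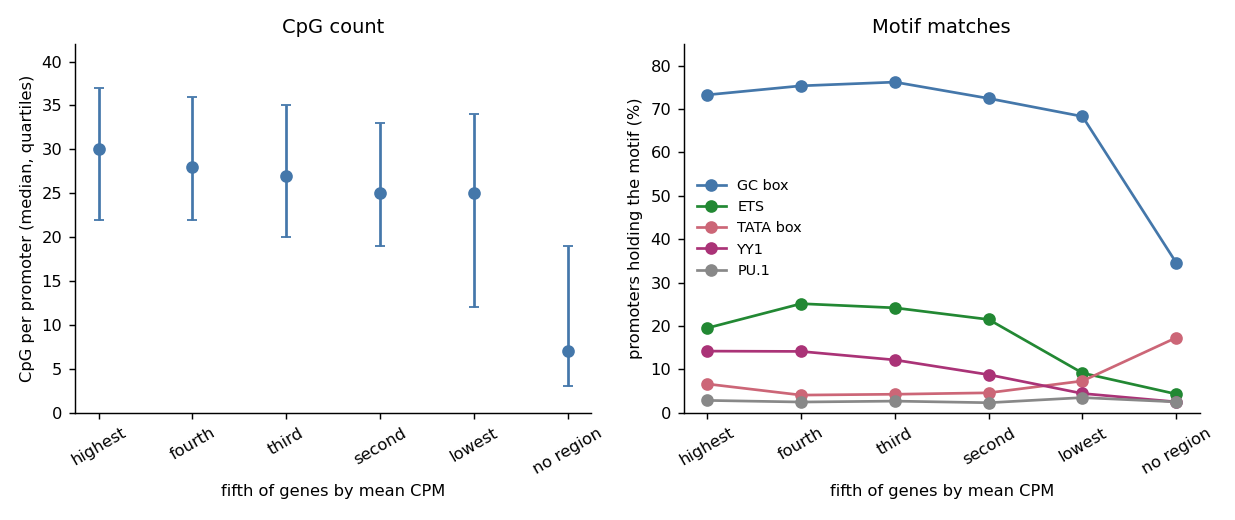
Left, median number of CpG with quartiles in the 300-base promoters of coding genes by group of mean CPM at the start, and for genes with no region; right, percent of the same promoters holding 5 of the motifs on either strand. Medians run from 30 to 25 CpG across groups with a region and the median is 7 without.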

How the data were processed

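H3K9ac ChIP-seq of MOLM-13 was read from the 3 DMSO columns of a table of regions; 3 other columns were not read and inputs were not analysed here. The column headers say TPM, but the deposited values are CPM, counts scaled to a sum of 1000000 over the listed regions, with no length scaling: they are whole multiples of 1 read in 100% of values up to 100 reads, within 0.02 reads, which recovers the depth. Tools listed per the submitters' processing notes are Bowtie2, SAMtools, MACS2 and bedtools, without roles, with the build hg38; region calling and joining are not given in the sources here, so widths may not come from the DMSO libraries alone. Each region got a mean CPM, an SD (n = 3) and CPM per kb; density was ranked for means of at least 10 CPM. Genes were matched to RefSeq (GRCh38.p14): a region within 1 kb of the start, or of either end for 4214 of 20056 coding genes with no start in the table, and a gene took its strongest such region. With 1 group there is no comparison and no p-value. Names were drawn from the 20 highest regions per ranking (not all are named), 5 extremes in spread and in rank change, up to 4 highest and 2 lowest genes per list, and 27 fixed genes; other names were chosen after their values were seen. Members and lists were chosen with earlier results of these data known. The scripts were tested on simulated data. Python 3.11.15, pandas 2.3.3, numpy 2.4.6 and matplotlib 3.10.9 were used.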

Additional observations from a re-analysis of the deposited data

How the results depend on the processing

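Of the 20 strongest regions by mean CPM, 17 to 20 stayed among the 20 under the settings tried, with 18 to 19 when a replicate was left out. Of the 20 densest, 15 to 20 stayed (16 to 19 without a replicate), but 2 after division by the median of the region's own chromosome and 3 without chromosome 8. The chromosome 8 ratio of 1.96 became 2.18 after background subtraction. That step takes the same level per kb from every region of a library, which by its form raises a ratio above 1. The ratio ranged from 1.95 to 2.07 when a replicate was left out. Regions with 0 reads numbered 660 in replicate 3 alone and 4 in all libraries. Regions wider than 10 kb numbered 44, or 134 after merging, and 351 were wider than 5 kb. Leaving out a replicate gave 12.3% to 15.0% of signal in the strongest 1% of regions, 69.7% to 76.9% at coding starts, 11387 to 11773 genes with a region of at least 5 CPM, and 12 to 13 lists above the gene median (13 with all). Of 399 values of named genes and lists under other settings, 47 moved by over 1.5 times. Division by chromosome, the omission of chromosome 8, merging and the chromosome ratio were chosen after seeing the data. No paired analysis was possible because there is 1 group and no test. Replicate 1, the shallowest, limits weak regions: 25.6% of regions had fewer than 3 reads there.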
